A study of Saccharomyces cerevisiae with 7 samples.

Results

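Loss of *TRF5* was examined in yeast that already lacked both *FPR3* and *FPR4*, by setting the library of Δ*fpr3*Δ*fpr4*Δ*trf5* against the library of Δ*fpr3*Δ*fpr4*. The members of this comparison are the genes with more than 5 reads in both libraries together, which left 4761 of the 5110 annotated genes, and no gene was chosen by its ratio. The series holds 7 libraries of budding yeast (*Saccharomyces cerevisiae*), 1 per strain, made from rRNA-depleted RNA of midlog cultures in rich YPD medium. Besides this pair they are BY4741 (wild type), Δ*sir2*, Δ*fpr3*, Δ*fpr3*Δ*trf5* and Δ*fpr4*, so that *TRF5* is intact in 5 of the 7 strains. The Δ*fpr3*Δ*fpr4* strain was built in BY4741 by replacing *FPR4* with a nourseothricin resistance cassette in a strain with a kanamycin cassette at *FPR3*. Both strains without *TRF5* are instead haploid **a** mating type progeny of a genetic array cross that carry *fpr3*::*LEU2*, a kanamycin cassette at *TRF5*, and deletions of *CAN1* and *LYP1* that make them resistant to canavanine and thialysine. In Δ*fpr3*Δ*fpr4*Δ*trf5*, the triple mutant, *FPR4* is replaced by the nourseothricin cassette and a covering *FPR4* plasmid was removed on 5-fluoroorotic acid. By the selection that the methods describe, Δ*fpr3*Δ*trf5* carries the same cassette at *FPR4* and has its *FPR4* from that single-copy *URA3* plasmid. Deletion of *TRF5* and the array background therefore changed together, and their parts in any difference cannot be told apart. No difference has a replicate check, and every test of reads compares the libraries and not the conditions.

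Trf5 is a noncanonical poly(A) polymerase. Together with a zinc-knuckle protein (Air1 or Air2) and the helicase Mtr4 it forms the nuclear complex TRAMP5, which adds short adenosine tails to faulty or unwanted transcripts and hands them to the nuclear RNA exosome for degradation or trimming. Fpr3 and Fpr4 are nucleolar prolyl isomerases of the FK506-binding family that also act as histone chaperones.

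Library totals were 627679 reads in Δ*fpr3*Δ*fpr4*Δ*trf5*, the shallowest of the 7, and 1009336 in Δ*fpr3*Δ*fpr4*, within a range up to 1242534. Levels are given as RPKM, the reads per kilobase of gene scaled to the library total. Ratios are log2 ratios of RPKM plus 1, from which the median over all tested genes (0.21 before rescaling) was subtracted. A gene was called when it differed at least 1.5-fold and its reads in both libraries departed from the share set by the rescaled library sizes (chi-square test, Benjamini-Hochberg adjustment over all tested genes at 0.05). Intervals are exact 95% binomial intervals and cover counting error only.

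The deleted genes and the array markers were read first. *FPR3* and *FPR4* had 0 reads in both libraries. *TRF5* (YNL299W, chromosome XIV) had 22 reads in Δ*fpr3*Δ*fpr4*, between 21 and 51 in the other strains with *TRF5*, 0 in Δ*fpr3*Δ*trf5* and 2 in Δ*fpr3*Δ*fpr4*Δ*trf5*, a log2 ratio of -2.43 (interval -6.12 to -0.96). *CAN1*, the arginine permease, fell from 191 reads to 0, at least 45.9-fold when 0 is taken as 3 reads, and *LYP1*, the lysine permease, fell from 182 to 0, at least 43.7-fold. *LEU2*, which BY4741 lacks, went from 0 to 35 reads (at least 16.2-fold higher) and had 70 in Δ*fpr3*Δ*trf5*. *HIS3* rose from 38 to 61 reads, a log2 ratio of 1.14. *URA3* and *MET17* had 0 reads in all 7 libraries. In Δ*fpr3*Δ*trf5* *FPR4* had 186 reads, so that the *URA3* marker of the covering plasmid was not seen in a strain with *FPR4* mRNA, and where that mRNA came from was not tested. The genes beside *TRF5* were called as well. *TOS6*, a cell wall protein gene, rose from 32 to 80 reads (log2 ratio 1.78), and *CLA4*, a kinase gene, from 48 to 57 (0.69), whereas in Δ*fpr3*Δ*trf5* against Δ*fpr3* neither was called (-0.40 and -0.33). The difference between those comparisons, tested as described below for phosphate genes, was called for both (2.17 and 1.06). A gene beside the deleted *CAN1* was called higher too, from 18 to 30 reads (1.14), and the gene on the other side was not called (0.42). The **a** mating type was seen in both libraries. All 7 a-specific genes were tested, and 4 rose and none fell, against 13.7% and 12.7% of all genes. *STE2*, the alpha-factor receptor, had 1046 and 962 reads and was not called. Of 4 alpha-specific genes only *SAG1* had enough reads to be tested. It rose too, from 16 to 41 reads (1.71), and in Δ*fpr3*Δ*trf5* (1.10). Of 12 haploid-specific genes 3 rose and 3 fell. The rises of *MFA1* and *MFA2*, which encode the a-factor pheromone, turn to ratios of -0.06 and -0.12 once a trend with gene length is removed. With that trend removed 1 a-specific gene rose and none fell, and 2 haploid-specific genes rose and 1 fell.

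Of the 4761 genes, 650 (13.7%) rose and 605 (12.7%) fell in Δ*fpr3*Δ*fpr4*Δ*trf5*, together 26.4%. Of these, 433 rises and 256 falls were at least 2-fold. On library totals alone, without the rescaling, 984 rose and 322 fell, so that rises were 75.3% of the calls in place of 51.8%. The medians given below for gene groups then move up by the same 0.21, which turns those of amino acid synthesis (0.10), histone (0.03) and large subunit assembly genes (0.16) positive. Among genes named below, *MTR4*, *RRP6*, *HTA1*, *HTB1*, *VTC2*, *SUN4* and *PHM6* were not called on that scale. Where a called gene stood among all 7 libraries was also read from the RPKM, without the rescaling. Δ*fpr3*Δ*fpr4*Δ*trf5* had the highest level of the 7 for 610 of the 650 genes that rose, against 37.6% of all tested genes, and the lowest for 430 of the 605 that fell, against 16.4%. For 192 of the 650 rises, Δ*fpr3*Δ*fpr4* was itself the lowest of the 7 libraries (12.2% of all tested genes). A call already places the triple mutant above or below Δ*fpr3*Δ*fpr4*. Such ranks, here and for the gene groups below, are therefore partly fixed by the calls and are a description only. The plot of ratio against level shows the rises and falls spread over the whole range of expression, with the marker genes and other genes at 0 reads in one library farthest from 0.

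**Figure D1:**
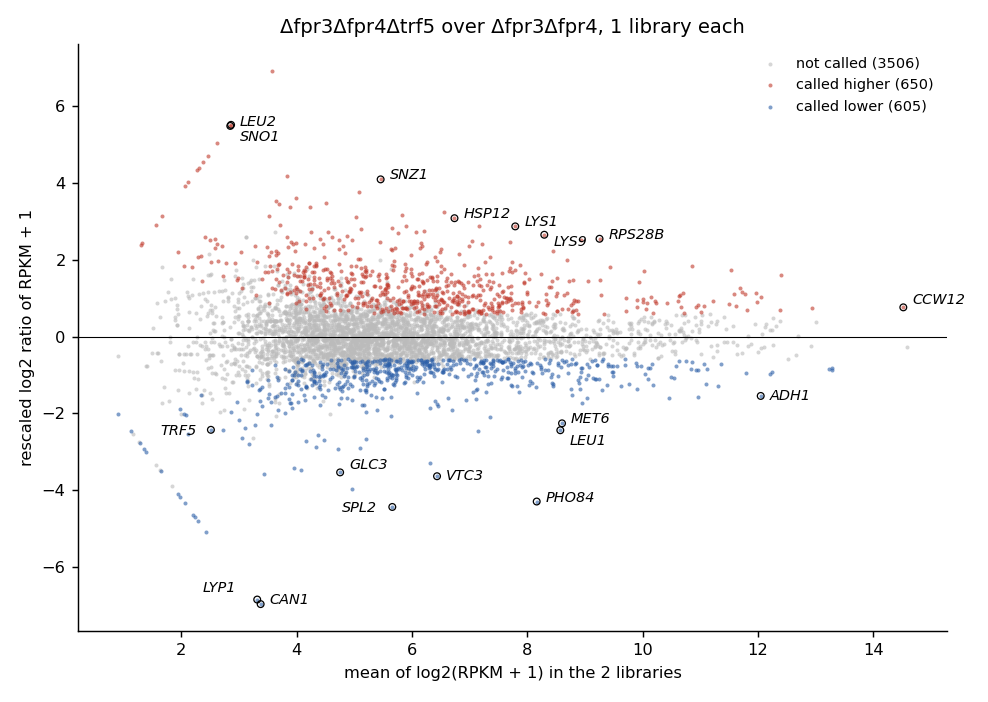
Each point is 1 of the 4761 tested genes. The x axis is the mean of log2(RPKM + 1) in both libraries and the y axis the rescaled log2 ratio of Δ*fpr3*Δ*fpr4*Δ*trf5* over Δ*fpr3*Δ*fpr4*, with 650 genes called higher in red, 605 called lower in blue and named genes circled. *CAN1* and *LYP1* lie below -6 and *PHO84* at -4.29, and the straight lines of points at the left are genes with 0 reads in one library.

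The ratio depended on gene length. Over 5 classes of about equal size, from the shortest to the longest genes, the median log2 ratio went from 0.52 through 0.18, -0.07 and -0.12 to -0.35. In the shortest class (72 to 721 bases) 289 of 953 genes rose and 25 fell. In the longest (2223 to 14733 bases) 29 of 952 rose and 235 fell. Genes that rose had a median length of 800 bases and genes that fell of 1833, against 1308 over all tested genes. In Δ*fpr3*Δ*trf5* against Δ*fpr3*, a comparison that shares no library with this one, the same classes went from 0.11 to -0.08. The bearing of this trend on each gene group was therefore measured by subtracting a smooth curve of the ratio over length, an alternative chosen after the trend was seen. It left 500 rises (10.5%) and 508 falls (10.7%), and 5.47% and 5.68% of genes in Δ*fpr3*Δ*trf5*. Its value is given beside many of the groups and genes whose calls it ends, but not beside all of them.

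**Figure D2:**
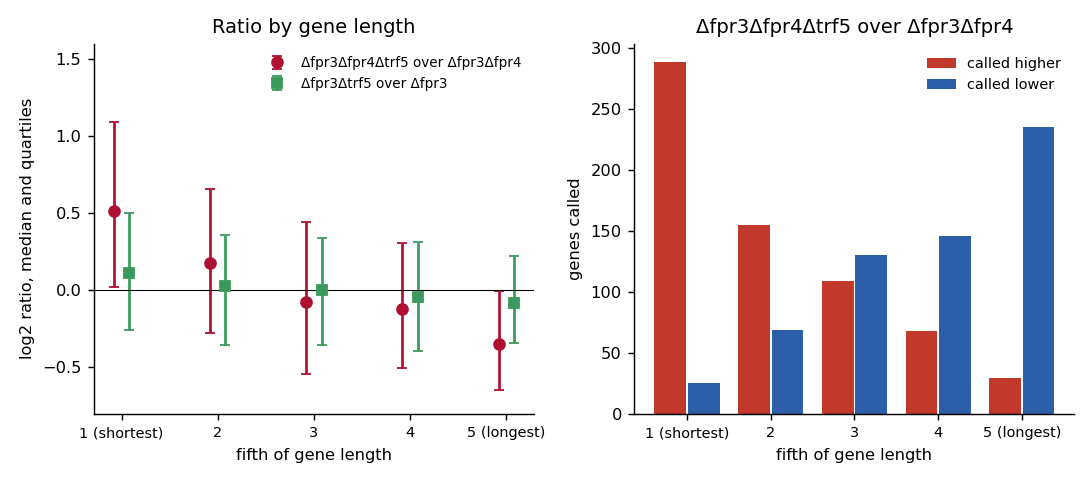
Left, median log2 ratio (points) with lower and upper quartiles (bars) in each of 5 classes of gene length, for Δ*fpr3*Δ*fpr4*Δ*trf5* over Δ*fpr3*Δ*fpr4* in red and Δ*fpr3*Δ*trf5* over Δ*fpr3* in green. Right, genes called higher and lower per class in the first comparison. The median falls from 0.52 in the shortest class to -0.35 in the longest, and the calls turn from 289 higher and 25 lower to 29 higher and 235 lower.

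Genes of phosphate acquisition gave several of the largest falls. In yeast, the transcription factor Pho4 turns on phosphatases, phosphate transporters and the enzymes of polyphosphate storage when phosphate is short, and the cyclin-dependent kinase Pho80-Pho85 keeps it inactive when phosphate is ample. Of 26 tested phosphate genes 13 fell and 2 rose, against 12.7% and 13.7% of all genes, with a median of -0.65, which did not change when the genes at 0 reads were set to their bound. Without the rescaling 11 fell and 5 rose. *PHO84*, the high-affinity phosphate transporter, had an RPKM of 68.6 in Δ*fpr3*Δ*fpr4*Δ*trf5* and 1177 in Δ*fpr3*Δ*fpr4*, from 76 and 2096 reads. Its level was 461 in BY4741, 953 in Δ*fpr3*Δ*trf5*, 1227 in Δ*fpr3*, 1509 in the *fpr4* and 1975 in the *sir2* single mutant. The mutant thus stood below every library, wild type included, and the log2 ratio to Δ*fpr3*Δ*fpr4* was -4.29 (-4.66 to -3.98). *VTC3*, a subunit of the vacuolar complex that makes polyphosphate, fell from 714 to 40 reads, a log2 ratio of -3.63 (-4.18 to -3.22, chi-square test with Benjamini-Hochberg adjusted p = 6.1e-90). Its partners *VTC4*, the catalytic subunit, *VTC1* and *VTC2* fell by 2.45, 1.73 and 0.73 on the log2 scale. With the length trend removed *VTC2* was not called (-0.49).

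Secreted and vacuolar phosphatases were lower too. *PHO5*, the main repressible acid phosphatase, went from 122 reads in Δ*fpr3*Δ*fpr4* to 11 in the triple mutant, a log2 ratio of -2.90 (-4.04 to -2.11). Its close relatives *PHO11* and *PHO12* went from 30 to 0 reads, at least 7.20-fold, and from 121 to 13. These are near-identical copies whose reads can be split or dropped in mapping, so each single value is uncertain. *PHO8*, the vacuolar alkaline phosphatase, fell by 1.19 on the log2 scale. *PHO89*, the sodium-coupled phosphate transporter, fell by 2.92 on this scale, from 115 to 10 reads. *SPL2*, a small protein that restrains low-affinity phosphate uptake, went from 98 reads to 3, a log2 ratio of -4.43 (-6.86 to -2.97), and *PHM6*, a phosphate-regulated gene of unknown role, from 9 reads to 0, at least 2.16-fold lower. *PHO81*, the inhibitor of the Pho80-Pho85 kinase, fell by 1.64. The factor gene *PHO4* moved the opposite way, from 11 to 24 reads (log2 ratio 1.51), as did *GIT1*, a glycerophosphoinositol permease, from 2 to 10 reads, a log2 ratio of 2.09 with an interval of 0.56 to 6.03. For *PHO4* the Δ*fpr3*Δ*fpr4* library was the lowest of the 7, at 11.6 RPKM, against 36 in BY4741 and 40.7 in the triple mutant. *PHO4* was also called higher in Δ*fpr3*Δ*trf5* against Δ*fpr3* (1.24). *PHO80*, *PHO85* and *PHO2*, the cyclin, the kinase and a cofactor, were not called (0.57, 0.38 and -0.22), nor was *PHO3*, an acid phosphatase that does not answer to phosphate (0.14).

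BY4741 also had low levels of several of these genes. *PHO5* had 17.6 RPKM there, near the 12.5 of Δ*fpr3*Δ*fpr4*Δ*trf5*, while the 5 libraries other than these 2 ran from 67.8 to 182. *SPL2* had 30.7 RPKM in BY4741 and 10.7 in Δ*fpr3*Δ*fpr4*Δ*trf5*, and *PHO11* had 0 reads in both. For 12 of the 13 fallen genes the mutant was the lowest of all 7 libraries, and *PHO11* tied with BY4741 at 0. In Δ*fpr3*Δ*trf5* against Δ*fpr3* the phosphate genes had a median of -0.23 with 6 calls lower and 1 higher, where 5.93% of all genes were called in each direction. The difference between the comparisons, tested on the reads of the 4 libraries (z test of the log ratios, Benjamini-Hochberg adjusted over 4695 genes, at least 1.5-fold), was called for 12 phosphate genes as more negative with both paralogs absent and for 3 as more positive. Over all genes 8.69% and 7.28% were called in those directions, 16% in all. The length trend was not removed from this test, here or for the genes and groups below. *PHO84* differed by -3.93 and *VTC3* by -3.32 on the log2 scale.

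The stretches of DNA upstream of these genes are shown because the fallen members share a sequence the comparison did not use. CACGTG, the core of the Pho4 binding site and also that of the factor Cbf1, was searched on both strands from 600 to 101 bases upstream of each annotated start, in 4736 nuclear protein-coding genes of the RefSeq annotation (R64). It stood upstream of all 13 phosphate genes that fell, of 3 of the 11 that were not called and of 1 of the 2 that rose, against 7.09% of all searched genes. It was found upstream of 11.8% of all genes that fell and 6.03% of those that rose. A match of letters is a description and no proof of binding. The stretches below are read 5′ to 3′ on the strand of the gene, with CACGTG in capitals. They lie at chrXIII:26182-26241 for *PHO84*, chrXVI:517297-517356 for *VTC3*, chrVIII:375215-375274 for *SPL2*, chrX:413500-413539 for *VTC4*, chrII:798813-798872 for *PHO89* and chrII:431172-431231 for *PHO5*, all on the minus strand.
PHO84: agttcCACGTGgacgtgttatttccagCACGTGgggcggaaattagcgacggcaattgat
VTC3: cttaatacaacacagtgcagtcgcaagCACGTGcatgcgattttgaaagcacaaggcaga
SPL2: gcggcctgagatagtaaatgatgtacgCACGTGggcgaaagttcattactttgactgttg
VTC4: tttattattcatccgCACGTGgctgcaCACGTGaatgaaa
PHO89: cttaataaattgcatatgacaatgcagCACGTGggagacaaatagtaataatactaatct
PHO5: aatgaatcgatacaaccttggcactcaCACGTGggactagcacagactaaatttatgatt

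*PHO84* and *VTC4* each had 2 copies within the stretch shown, at 436 and 414 and at 125 and 113 bases upstream of the start. *VTC3* and *SPL2* had a second copy outside it, at 345 and 361 bases.

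**Figure D3:**
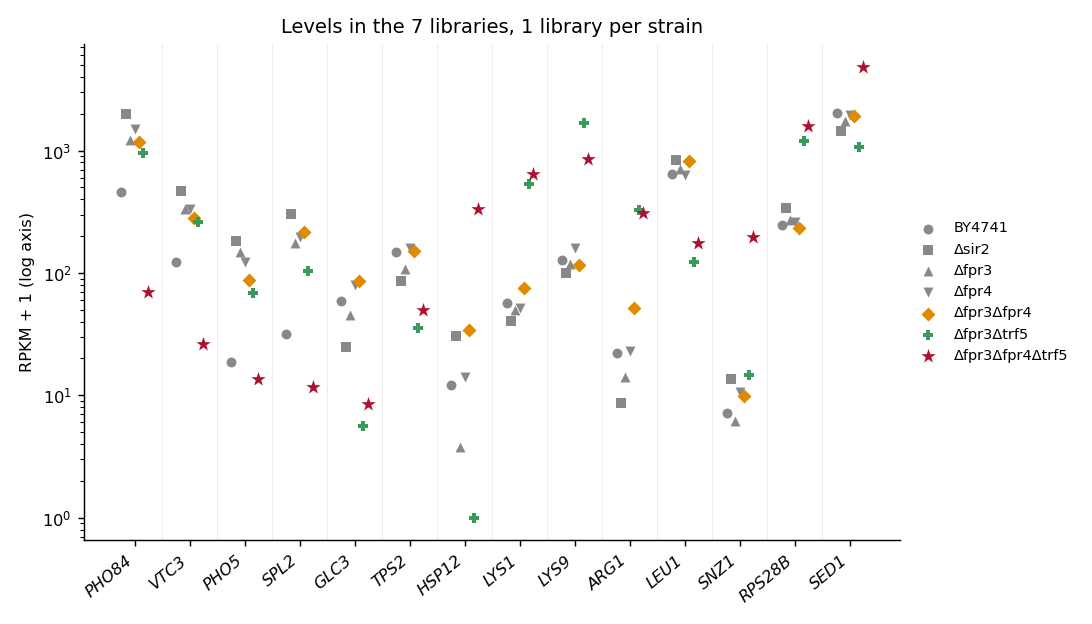
RPKM plus 1 on a log axis for 14 named genes in each of the 7 libraries, 1 symbol per library and gene. Grey symbols are BY4741 and the Δ*sir2*, Δ*fpr3* and Δ*fpr4* strains, the orange diamond Δ*fpr3*Δ*fpr4*, the green cross Δ*fpr3*Δ*trf5* and the red star Δ*fpr3*Δ*fpr4*Δ*trf5*. The star is the lowest of 7 for *PHO84*, *VTC3*, *PHO5* and *SPL2* and the highest for *HSP12*, *LYS1*, *SNZ1*, *RPS28B* and *SED1*, while for *GLC3*, *TPS2*, *LYS9*, *ARG1* and *LEU1* the star and the cross stand together on one side of the other libraries.

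Several reserve carbohydrate genes fell in both strains without *TRF5*. Glycogen and trehalose are the stored sugars of yeast, laid down as growth slows. Of 29 tested genes of general stress and reserve carbohydrates, 15 fell and 3 rose, against 12.7% and 13.7% of all genes. Their median was -0.75. In Δ*fpr3*Δ*trf5* against Δ*fpr3*, 16 fell and none rose, where 5.93% of all genes were called in each direction. The median there was -0.93. *GLC3*, the glycogen branching enzyme, went from 180 reads in Δ*fpr3*Δ*fpr4* to 10 in the triple mutant, a log2 ratio of -3.53 (-4.78 to -2.78). It had 8 reads in Δ*fpr3*Δ*trf5* and between 63 and 192 in the strains with *TRF5*. *GSY1*, a glycogen synthase, fell from 110 to 6 reads (-3.46, interval -5.20 to -2.56), *GAC1*, a phosphatase subunit that activates glycogen synthase, from 51 to 4 (-2.81), and *PGM2*, a phosphoglucomutase, from 89 to 9 (-2.70). *GPH1*, which breaks glycogen down, fell from 203 to 38 (-1.90). *TPS2* and *TPS1*, which make trehalose, fell from 411 to 83 and from 338 to 78 (-1.82 and -1.63), and *UGP1*, which makes UDP-glucose, from 498 to 146 (-1.29). *SDP1*, a MAP kinase phosphatase gene, went from 13 reads to 0, at least 3.12-fold lower. *EMI2*, a gene related to glucokinase that is not on the list, fell from 172 to 7 reads (-3.98).

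The 3 rises of the list were *HSP12*, *DDR2* and *SPI1*. *HSP12*, a membrane-associated small heat shock protein, rose from 11 to 69 reads (3.08, interval 2.19 to 4.19) and had 0 in Δ*fpr3*Δ*trf5* and at most 12 in any other library. *DDR2* rose from 9 to 49 reads (2.89) and *SPI1*, a cell wall protein gene, from 61 to 87 (0.98). *SPI1* fell in Δ*fpr3*Δ*trf5* (-1.06), where *DDR2* went from 7 reads to 1, and the difference between the comparisons was called for *DDR2* (4.77) and *SPI1* (2.03). These genes are short, at 330, 186 and 447 bases. With the length trend removed *HSP12* and *DDR2* were still called (2.43 and 2.09) and *SPI1* was not (0.40). AGGGG, the stress response element bound by Msn2 and Msn4, stood upstream of 14 of the 15 listed genes that fell, all 3 that rose and all 11 not called, against 35.1% of all searched genes.

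Amino acid synthesis genes were called in both directions. Of 56 tested genes 15 rose and 14 fell, against 13.7% and 12.7% of all genes, with a median of -0.11. Without the rescaling 19 rose and 7 fell. All of the 15 rises except *THR1* and *ILV6* belong to lysine or arginine synthesis. *LYS1*, which carries out the last step to lysine, had 85 reads in Δ*fpr3*Δ*fpr4*, 453 in Δ*fpr3*Δ*fpr4*Δ*trf5*, 493 in Δ*fpr3*Δ*trf5* and between 55 and 69 in BY4741 and the Δ*sir2*, Δ*fpr3* and Δ*fpr4* libraries. The log2 ratio was 2.87 (chi-square test with Benjamini-Hochberg adjusted p = 5.5e-86). *LYS9*, the step before it, rose from 156 to 712 reads (2.65), *LYS12* from 123 to 285 (1.68) and *LYS20*, a homocitrate synthase at the start of the pathway, from 250 to 494 (1.45). *LYS2*, *LYS4* and *LYS21* rose by 1.06, 1.09 and 0.89 on the same scale. In arginine synthesis, *ARG3*, the ornithine carbamoyltransferase, rose from 6 to 33 reads (2.73), *ARG1*, the argininosuccinate synthetase, from 65 to 245 (2.36), and *CPA1*, which makes carbamoyl phosphate for the pathway, from 174 to 331 (1.39). *CTP1*, a mitochondrial citrate transporter gene that is not on the list, rose from 15 to 103 reads (3.18).

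The same lysine and arginine genes rose in Δ*fpr3*Δ*trf5*, several of them further. *LYS9* rose by 3.80, *LYS20* by 2.67 and *ARG1* by 4.53 on the log2 scale there, and the difference was called for each (-1.15, -1.22 and -2.21). For *LYS1* (3.42) it was not called. *CAR2*, the ornithine aminotransferase of arginine breakdown, showed the largest called difference of all genes with at least 20 reads in each comparison. It went from 247 reads in Δ*fpr3* to 2 in Δ*fpr3*Δ*trf5*, but only from 84 to 30 with both paralogs absent, so that the log2 ratios were -5.94 and -0.996 and the difference 5.23.

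The amino acid gene that fell furthest was *LEU1*. *LEU1*, the isopropylmalate isomerase of leucine synthesis, went from 1940 reads in Δ*fpr3*Δ*fpr4* to 257 in the triple mutant, a log2 ratio of -2.44, and it fell by 2.55 in Δ*fpr3*Δ*trf5*. *BAT1*, a branched-chain aminotransferase, fell from 763 to 215 reads (-1.35), and *GDH1*, a glutamate dehydrogenase, from 488 to 129 (-1.44). *ILV2* and *ILV5*, earlier steps of the pathway, fell by 0.87 each. *ILV6*, the regulatory subunit that works with Ilv2, rose from 321 to 821 reads (1.82), and its difference from the other comparison was called (1.33).

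Upstream sequence was read for the same list. A lysine element, TCCNNNGGA, known as the site of the activator Lys14, and the site of the leucine regulator Leu3, CCGG repeated after any 2 bases, were looked for after these values had been seen. The lysine element stood in 6.97% of all searched windows. In the amino acid list it stood upstream of 6 of the 15 genes that rose (*LYS1*, *LYS9*, *LYS12*, *LYS20*, *LYS21* and *CPA1*), 3 that were not called and none that fell. It was not found in the windows of *LYS2* and *LYS4*, which rose too. The Leu3 site stood upstream of 17 of the 4736 genes (0.359%), of which 7 fell and 2 rose. These include 5 of the 14 amino acid genes that fell (*LEU1*, *GDH1*, *BAT1*, *ILV2* and *ILV5*) and none of the 15 that rose. TGACTC, the site of the general amino acid regulator Gcn4, was about as common among genes that rose (10 of 15), fell (10 of 14) or were not called (19 of 27), and it stood in 14.1% of all windows. The stretches below show the element of *LYS1* (chrIX:420897-420959, minus strand), *LYS9* (chrXIV:715516-715578, minus), *LYS12* (chrIX:187779-187841, minus) and *LYS20* (chrIV:132837-132898, plus), and the Leu3 site of *LEU1* (chrVII:478833-478896, minus) and *BAT1* (chrVIII:517358-517421, plus), in capitals.
LYS1: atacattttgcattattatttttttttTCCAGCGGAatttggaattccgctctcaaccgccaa
LYS9: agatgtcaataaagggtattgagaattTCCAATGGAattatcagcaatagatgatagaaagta
LYS12: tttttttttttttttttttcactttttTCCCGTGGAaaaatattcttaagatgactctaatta
LYS20: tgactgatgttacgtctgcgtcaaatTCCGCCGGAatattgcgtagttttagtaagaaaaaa
LEU1: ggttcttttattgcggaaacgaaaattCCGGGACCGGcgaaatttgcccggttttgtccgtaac
BAT1: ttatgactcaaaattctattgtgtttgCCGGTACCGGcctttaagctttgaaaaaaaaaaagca

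Of 20 sulfur and methionine genes 8 fell and 2 rose, against 12.7% and 13.7% of all genes, with a median of -0.81. *MET6*, the methionine synthase, fell from 1832 to 275 reads (-2.26), *SAM2*, which makes S-adenosylmethionine, from 216 to 41 (-1.91), and *SAH1*, which clears S-adenosylhomocysteine, from 1943 to 542 (-1.37), whereas *MET8*, a siroheme synthesis gene, rose from 1 read to 7 (2.51, interval 0.32 to 8.77), a call that ended with the length trend removed. CACGTG stood upstream of 7 of the 8 sulfur genes that fell, both that rose and 9 of the 10 not called. Of 26 nucleotide synthesis genes 13 fell and 2 rose, with a median of -0.64. *URA1*, the dihydroorotate dehydrogenase, fell from 616 to 213 reads (-1.06) and *URA2*, a gene of 6645 bases for the first steps to pyrimidines, from 3015 to 1100 (-0.98). *ADE4*, at the start of purine synthesis, rose by 0.65. Without the rescaling 7 nucleotide genes fell. With the length trend removed 8 fell, and *URA2* was no longer called (-0.49).

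Of 23 glycolysis and fermentation genes 13 fell and 1 rose, against 12.7% and 13.7% of all genes. Their median was -0.76, and 12 fell with the length trend removed. *ADH1*, the main alcohol dehydrogenase, fell from 7089 to 1751 reads (-1.54, interval -1.62 to -1.47). *TDH2* and *TDH1*, closely related glyceraldehyde-3-phosphate dehydrogenases, fell by 1.56 and 2.08, and *PGI1*, phosphoglucose isomerase, by 1.24. Their relative *TDH3*, the most read gene of the list, went from 25352 to 15093 reads and was not called (-0.28). The rise was *ADH2*, from 0 to 6 reads (at least 2.78-fold), which had 4 to 7 in the other 5 libraries. The median in Δ*fpr3*Δ*trf5* was -0.13 with 4 falls and 1 rise, where 5.93% of all genes were called in each direction. The difference was called more negative for 9 genes of the list and more positive for none, against 8.69% and 7.28% of all genes. *TDH1* is one whose difference was not called, since it fell by 1.54 in that strain as well.

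Of 33 translation factor genes 11 fell and none rose (median -0.40), and of 23 chaperone genes 9 fell and none rose (median -0.48), against 12.7% of all genes that fell. The other 22 and 14 genes were not called. On library totals alone the falls were 4 and 7, with 1 rise in each list. *TIF3*, an initiation factor, fell from 548 to 159 reads (-1.31), and *YEF3*, the fungal elongation factor, from 19765 to 7457 (-0.93). *SSA2*, an Hsp70 gene, fell from 7090 to 2092 (-1.29) and *HSP42*, a small heat shock protein, from 81 to 19 (-1.59). Of 7 siderophore iron uptake genes 4 fell (3 with the length trend removed) and none rose, and *FIT3*, a cell wall siderophore-binding protein, fell from 87 to 17 reads (-1.86).

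Ribosomal protein genes moved in both directions, and the balance rested on gene length. Of 138 tested, 34 rose and 9 fell, against 13.7% and 12.7% of all genes, with a median of 0.19. With the length trend removed 15 rose and 25 fell, against 10.5% and 10.7% of all genes, with a median of -0.11. On library totals alone 48 rose and 5 fell. The largest rise was *RPS28B*, which had 48 reads in Δ*fpr3*Δ*fpr4*, 203 in Δ*fpr3*Δ*fpr4*Δ*trf5*, 201 in Δ*fpr3*Δ*trf5* and between 55 and 86 in BY4741 and the Δ*sir2*, Δ*fpr3* and Δ*fpr4* libraries. Both strains without *TRF5* thus stood above all strains with *TRF5*, with log2 ratios of 2.55 (2.09 to 3.04) and 2.15. It was called with the length trend removed too (1.77). *RPS27A* rose from 325 to 766 reads (1.71) in this comparison and was not called in the other (-0.06). The falls were led by *RPL18B*, from 255 to 85 reads (-1.11), and the much more abundant *RPS31* and *RPS2* (-0.98 and -0.95). All 3 differed from the other comparison by about 1 on the log2 scale (-1.01, -1.16 and -1.004). Many of these genes are in near-identical pairs, whose single values are uncertain. Mitochondrial ribosomal protein genes, 12 up and 2 down of 66, had a median of 0.40 that fell to -0.03 once length was taken out. Nuclear oxidative phosphorylation genes, 10 up and 5 down of 41, went from a median of 0.41 to -0.19, with 2 up and 10 down. *QCR7*, a small subunit of the cytochrome bc1 complex, was called both ways (1.65 and 1.04).

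Lists of ribosome production differed from one another. Of 16 genes of RNA polymerase I and its factors 6 rose and 1 fell, with a median of 0.58 (0.49 with length taken out, 5 up and none down). *RPA14*, a small subunit, rose from 34 to 137 reads (2.47) and *RRN11*, a subunit of its core initiation factor, from 12 to 51 (2.41), while *RPA190*, the long gene of the largest subunit, fell from 1459 to 559 reads (-0.91, not called at -0.48 with length taken out). Δ*fpr3*Δ*fpr4* was the lowest of the 7 libraries for 3 of the 6 genes that rose. Small subunit processome genes, which process the precursor of 18S rRNA, had 11 rises and 5 falls among 51. *SAS10* rose from 18 to 35 reads (1.34), and *RRP5* fell from 1151 to 445 (-0.89, but -0.46 and not called with length taken out). With length taken out 11 rose and 1 fell, and on library totals alone 18 rose and 2 fell. Large subunit assembly genes had 11 rises and 4 falls among 61, with a median of -0.05, and 8 rises and 3 falls with a median of 0.06 with length taken out. Over all genes 13.7% rose and 12.7% fell.

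Of 33 tested cell wall genes 9 rose, 1 fell and 23 were not called, against 13.7% of all genes that rose, with a median of 0.31, and Δ*fpr3*Δ*fpr4*Δ*trf5* was the highest of all 7 libraries for the 9. On library totals alone 15 rose and none fell. *SED1*, an abundant wall glycoprotein, went from 1981 reads in Δ*fpr3*Δ*fpr4* to 3107 in the triple mutant, a log2 ratio of 1.12 (1.04 to 1.20), and fell by 0.72 in Δ*fpr3*Δ*trf5*. *SLT2*, the MAP kinase of the cell wall integrity pathway, rose from 123 to 154 reads (0.79). Further members of the list that rose were *KDX1*, a kinase-related gene, from 8 to 35 reads (2.42), *PIR3*, a wall protein gene, from 20 to 72 (2.26), and *GSC2*, a glucan synthase subunit, from 102 to 161 (1.08). *CCW12*, another abundant wall protein gene, rose by 0.76, but its short gene was not called with the length trend removed (0.16). *SUN4* fell by 0.62. In Δ*fpr3*Δ*trf5* none of the list rose and *SED1* alone fell. The difference was called more positive for 9 genes and more negative for 1, against 7.28% and 8.69% of all genes.

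**Figure D4:**
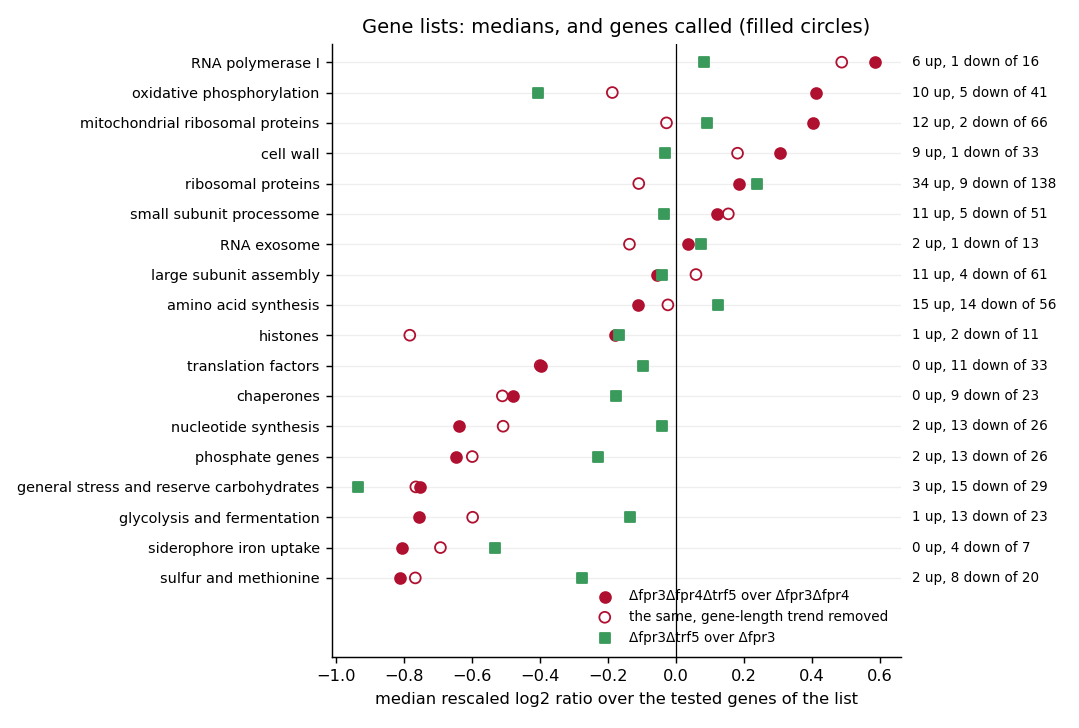
Median rescaled log2 ratio over the tested genes of 18 lists, for Δ*fpr3*Δ*fpr4*Δ*trf5* over Δ*fpr3*Δ*fpr4* (filled circles), the same after removing the gene-length trend (open circles) and Δ*fpr3*Δ*trf5* over Δ*fpr3* (green squares). The numbers at the right count genes called up and down in the first comparison. Medians run from 0.58 for RNA polymerase I to -0.81 for sulfur and methionine genes, and those of oxidative phosphorylation, mitochondrial ribosomal protein and ribosomal protein genes drop below 0 when length is taken out.

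The genes of the machinery that Trf5 belongs to were read against the 13.7% of all genes that rose and the 12.7% that fell. Of the 5 TRAMP subunit genes, *TRF5* and the helicase gene *MTR4* were called. *MTR4* fell from 295 to 139 reads (-0.61, interval -0.91 to -0.32) and by 0.63 in Δ*fpr3*Δ*trf5*, and with the length trend removed the ratio was -0.28 and not called. *PAP2*, which encodes the paralogous polymerase Trf4, had 53 and 27 reads (-0.49, interval -1.23 to 0.19), and *AIR1* and *AIR2* had ratios of 0.33 and 0.83, none of them called. Of 13 exosome genes *LRP1*, a partner of the nuclease Rrp6, and *RRP40*, a core subunit, rose (1.34 and 0.89) and *RRP6* itself fell from 181 to 75 reads (-0.79). The rises were not called with the length trend removed. *DIS3*, the other exosome nuclease, had 227 and 147 reads (-0.15). *NRD1*, an RNA-binding terminator of short transcripts whose own mRNA is limited by nuclear decay, rose from 148 to 164 reads (0.61, and 0.73 with length taken out), with *NAB3* at 0.01 and *SEN1* at -0.58, neither called. Of the 10 tested mRNAs known to be limited by nuclear decay or early termination 2 rose and 4 fell, with a median of -0.31, and with length taken out 2 rose and 2 fell. *IMD2*, an IMP dehydrogenase gene, rose from 60 to 67 reads (0.62), and *TIS11* went from 12 reads to 0, at least 2.88-fold lower.

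Reads over tRNA genes increased in both strains without *TRF5*. The libraries were not made to recover small RNAs, and the 47 tRNA genes together went from only 20 reads in Δ*fpr3*Δ*fpr4* to 68 when *TRF5* was absent as well, and from 23 in Δ*fpr3* to 68 in Δ*fpr3*Δ*trf5*. BY4741, Δ*sir2* and Δ*fpr4* had between 12 and 23. Against the rescaled library sizes the sum rose 4.72-fold (2.83 to 8.20) and 3.92-fold (2.41 to 6.59). Only 6 tRNA genes had enough reads to be tested singly, and 3 of them rose, against 13.7% of all genes. These 3 passed the minimum of more than 5 reads only through the triple mutant, so that their share is partly fixed by the filter. *SUP53* went from 0 to 10 reads (at least 4.63-fold, and 0 in every strain with *TRF5*). *SUF2* went from 2 to 14 (3.23 on the log2 scale, interval 1.16 to 6.46) and *SOE1* from 2 to 8 (2.43, interval 0.15 to 5.75). With the length trend removed *SUP53* alone was called. *SUP53* ends at base 90972 of chromosome III, upstream of *LEU2*, which starts at 91324 and also had 0 reads in every strain with *TRF5*. Loss of *TRF5* and the array marker therefore cannot be told apart for this gene. *SUP53* gave 10 of the 68 tRNA gene reads in the triple mutant and 2 of the 68 in Δ*fpr3*Δ*trf5*, and the sums were not taken without it. tRNA genes are among the shortest of all, and with the length trend removed the sum was 2.34-fold higher in this comparison and 3.40-fold in the other.

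Of 11 tested histone genes 2 fell (18.2%) and 1 rose (9.09%), not far from the 12.7% and 13.7% of all genes. *HTA1* and *HTB1*, the divergent pair for H2A and H2B, fell from 545 to 241 and from 443 to 198 reads (-0.70 and -0.69) and by 0.80 and 0.96 in Δ*fpr3*Δ*trf5*. *HHT2*, for H3, rose from 577 to 707 reads (0.77), and the difference from the other comparison was called (1.24). Histone genes are short. With the length trend removed 5 of 11 fell and none rose, and *HHT2* was at 0.16. On library totals alone 2 rose and none fell.

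A pair of vitamin B6 genes stood among the 10 largest rises of genes with at least 20 reads. *SNO1* and its neighbour *SNZ1*, a divergent pair 448 bases apart on chromosome XIII that makes pyridoxal phosphate, went from 0 to 22 reads (at least 10.2-fold higher) and from 8 to 109 (log2 ratio 4.09, interval 3.21 to 5.49). *SNO1* had 0 reads in every other library and *SNZ1* at most 14, and the difference from the other comparison was called for *SNZ1* (2.82). The remaining large rises began from very low counts in the reference. *FMC1*, which helps assemble the mitochondrial ATP synthase, rose from 1 to 19 reads (4.18, interval 2.07 to 10.1) and *LCL2* from 3 to 33 (3.76, interval 2.26 to 6.28). *BUB2*, a spindle position checkpoint gene, rose from 3 to 34 reads (3.61, interval 2.31 to 6.32), *DCI1*, a peroxisomal protein gene, from 2 to 23 (3.53, interval 1.98 to 7.13), and *MCH4*, of a transporter family, from 4 to 43 (3.47, interval 2.44 to 5.84). *MTC3* and *NNF1*, a kinetochore gene, each went from 2 to 19 reads (3.49 and 3.36, both with an interval of 1.67 to 6.87). For *BUB2* the Δ*fpr3* and Δ*fpr4* libraries had 19 and 20 reads, for *LCL2* 21 and 26, and for *NNF1* 14 and 10. They had 10 and 16 reads for *DCI1*, 17 and 5 for *FMC1*, 10 and 8 for *MCH4*, and 8 and 4 for *MTC3*. For each of these genes Δ*fpr3*Δ*fpr4* had fewer reads than both, so that the reference was low there. The difference from the other comparison was called for *FMC1* (6.58), *BUB2* (4.57) and *NNF1* (3.80). *SNA4*, a vacuolar membrane protein gene, rose from 7 to 38 reads (2.84), with a called difference of 3.95 from the other comparison. Among the falls, *OCA6* went from 23 reads to 1 (-3.58, interval -9.41 to -1.43). Of all tested genes on chromosome III 25 of 122 rose and 2 fell, against 13.7% and 12.7% of all genes. Its median of 0.17 (0.20 with length taken out) was the highest of the nuclear chromosomes. Medians of the other nuclear chromosomes lay between -0.12 and 0.07. In Δ*fpr3*Δ*trf5* against Δ*fpr3* the median of chromosome III was 0.097, again the highest of the nuclear chromosomes.

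Set side by side, the comparisons with and without *FPR4* shared part of their calls. Over 4695 genes tested in both, 88 rose in both, which is 13.9% of the 635 rises here and 31.5% of the 279 rises in Δ*fpr3*Δ*trf5*. Falls shared 98 genes, 16.2% of 604 and 35% of 280. Opposite calls were made for 18 of the rises and 8 of the falls. Across the 3064 genes with at least 20 reads in each of the 4 libraries Pearson's r of the log2 ratios was 0.33. The points are genes of the same 4 libraries and are not independent replicates, and both mutant libraries come from the same array cross. In all, 11.9% of genes were called in Δ*fpr3*Δ*trf5* (282 in each direction).

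**Figure D5:**
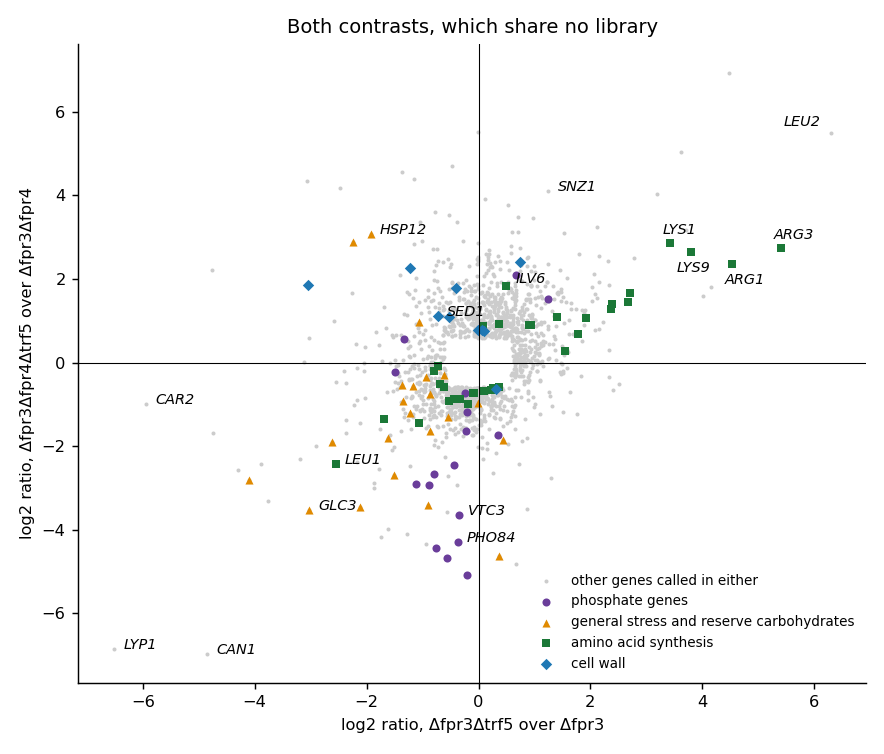
Rescaled log2 ratio of Δ*fpr3*Δ*fpr4*Δ*trf5* over Δ*fpr3*Δ*fpr4* (y) against Δ*fpr3*Δ*trf5* over Δ*fpr3* (x), for genes called in either, with 4 lists coloured. Lysine and arginine genes lie at the upper right and *GLC3* and *LEU1* at the lower left, changed in both. *PHO84* (-4.29 and -0.37) and *VTC3* (-3.63 and -0.35) lie low on the vertical axis, changed with both paralogs absent, and *CAR2* (-0.996 and -5.94) lies far to the left.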

How the data were processed

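Per the labels and the methods of the study, 100-bp paired-end reads were made on a MiSeq from rRNA-depleted RNA, and the authors aligned them to sacCer3 (BWA), kept pairs over a mapping quality threshold of 5, collapsed duplicates and counted those on the annotated strand inside Ensembl genes. The deposited table of each library holds raw read counts and a second value, headed TPM, that equals RPKM of the counts to within 0.098% and is treated as the authors' RPKM. Neither is normalized between strains. Samples were grouped by the strain in their GEO labels, with 1 library each. Totals ran from 627679 to 1242534 reads, so that 3 reads, the floor used for a count of 0, are 0.000241% to 0.000478% of a library. Of the 5110 genes, 5041 were matched to the RefSeq annotation of R64, which is the same build.

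Ratios were log2 of RPKM plus a pseudocount of 1, rescaled to a median of 0 over genes with more than 5 reads in both libraries. Reads were tested by chi-square (1 degree of freedom) against the share set by the rescaled library sizes, with Benjamini-Hochberg adjustment over all tested genes (5% level, at least 1.5-fold). The difference between comparisons was a z test on logs of reads plus 0.5, without removal of the length trend. The length trend was a lowess curve of the ratio over log length with a span of 0.3. With 1 library per strain, no count model with replicates applies. Python 3.11.15, numpy 2.4.6, scipy 1.17.1, pandas 2.3.3, statsmodels 0.14.6 and edgeR 4.0.16 (TMM factors alone) were used, and the tests were tested on simulated data. The members, the 44 gene lists and the tests were chosen with earlier results of these data known. Genes were named from the deleted and marker genes and the 10 largest rises and falls with at least 20 reads. Other sources were the leading called members and the most read member of the described lists, and the 5 largest differences between comparisons. TRAMP, exosome, Nrd1 and histone genes were a source as well. Not every gene of these sources is named, and several most read members without a call were left out. Further list members were named by their role after their values were seen, and 1 gene is not reported here. Near-identical pairs (*PHO11* and *PHO12*, histone and ribosomal protein pairs), the closely related *TDH* genes and 17 genes with a same-strand overlap have uncertain counts. Alternatives were other scalings, pseudocounts, read minimums, fold thresholds and tests. Upstream windows ran from 600 to 101 bases before the annotated start, and 10 motifs were searched, 2 of them added after the data were seen.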

Additional observations from a re-analysis of the deposited data

Results flagged for a closer look

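For 65 genes named in the report, the ratio of Δ*fpr3*Δ*fpr4*Δ*trf5* over Δ*fpr3*Δ*fpr4* differed from the ratio of Δ*fpr3*Δ*trf5* over Δ*fpr3* by a z test of the difference with Benjamini-Hochberg adjustment and at least 1.5-fold. The values here are those differences on the log2 scale. The length trend, which was steeper in the first of these comparisons, was not removed from them. With it removed, *CCW12* had ratios of 0.16 and -0.02 in the first and second comparison. Those of *SEN1* were -0.09 and 0.27, and those of *PHO84* -4.18 and -0.34. Of the 65 genes, 36 had the lower and 29 the higher ratio with both paralogs absent. No sample-level outlier could be sought, since each strain has 1 library, and the cause of each difference was not tested.

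Phosphate genes with the lower ratio were *PHO84* (-3.93), *SPL2* (-3.58), *VTC3* (-3.32), *PHO89* (-2.10), *VTC1* (-2.07), *VTC4* (-2.02), *PHO12* (-1.90), *PHO5* (-1.82), *PHO81* (-1.45) and *PHO8* (-0.99). In carbon and reserve metabolism they were *EMI2* (-2.42), *TDH2* (-1.32), *ADH1* (-1.27), *PGI1* (-1.09), *TPS1* (-0.76) and *UGP1* (-0.74). Lysine and arginine genes rose in both comparisons, and less with both paralogs absent: *ARG3* (-2.88), *ARG1* (-2.21), *LYS20* (-1.22), *LYS9* (-1.15), *LYS12* (-1.03), *CPA1* (-0.999) and *LYS2* (-0.85). Sulfur and pyrimidine genes were *MET6* (-1.66), *URA1* (-1.27), *SAM2* (-1.26) and *SAH1* (-1.21). In translation, folding and RNA decay they were *TIF3* (-1.21), *RPS31* (-1.16), *SSA2* (-1.07), *RRP6* (-1.05), *RPL18B* (-1.01), *RPS2* (-1.004), *YEF3* (-0.89) and *SEN1* (-0.69), and in the cell wall *SUN4* (-0.94).

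Genes with the higher ratio that started from under 25 reads in Δ*fpr3*Δ*fpr4* were *FMC1* (6.58), *DDR2* (4.77), *BUB2* (4.57), *DCI1* (4.23), *SNA4* (3.95), *NNF1* (3.80), *PIR3* (3.54), *LCL2* (3.20), *SNZ1* (2.82), *MCH4* (2.69), *SAS10* (2.34) and *RRN11* (2.21). *CAR2* (5.23) fell in both comparisons and by more in Δ*fpr3*Δ*trf5*. Cell wall and stress genes were *SPI1* (2.03), *SED1* (1.84), *GSC2* (1.67), *SLT2* (0.73) and *CCW12* (0.67). The neighbours of *TRF5* were *TOS6* (2.17) and *CLA4* (1.06). The rest were *RPA14* (2.49), *QCR7* (2.09), *RPS27A* (1.76), *ILV6* (1.33), *HHT2* (1.24), *RRP40* (1.17), *NRD1* (0.96), *THR1* (0.78) and *MFA2* (0.71).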

How the results depend on the processing

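With library totals alone in place of the median, 984 genes rose and 322 fell in Δ*fpr3*Δ*fpr4*Δ*trf5*. Of 126 named genes that were checked, 7 lost their call and 1 gained one, and all 44 list medians moved by more than 0.1 (log2). Calls at a 2-fold threshold were 689 (433 higher and 256 lower), and 267 (128 and 139) in Δ*fpr3*Δ*trf5* against Δ*fpr3*. The fold threshold alone, with no test, gave 1974 genes (1067 higher), and 1307 (650 and 657) in the other comparison. Removing the length trend, an alternative chosen after seeing the data, moved 31 of 44 list medians, ended the call of 13 named genes, turned *MFA1* to -0.056 and *MFA2* to -0.12, and lowered the tRNA gene sum to 2.34-fold. Without *SUF2*, the tRNA gene with the most reads, that sum was 4.16-fold. Scaling by TMM factors of edgeR, pseudocounts of 0.1 and 5, no filter on reads, a minimum of 20 reads, a 1.3-fold threshold, an exact binomial test and leaving out the mitochondrial genome kept each total count of calls within 1.5 times. No paired analysis was possible because each strain has 1 library, and for the same reason no library could be left out. Depth limits the low genes: 3 reads in Δ*fpr3*Δ*fpr4*Δ*trf5* are 0.000478% of its counts, so that a gene at 0 there may have been expressed below that share.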

Other observations

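Several lists that entered no comparison above were also measured. Of 16 tested thiamine and pyridoxine genes 4 rose and none fell when *TRF5* was absent beside both paralogs, with a median log2 ratio of 0.59. Of 15 histone chaperone genes 4 fell and none rose (median -0.35), 2 with the length trend removed, and the mutant was the lowest of the 7 libraries for the 4. Hexose transporter genes had 3 falls among 9 tested, with Δ*fpr3*Δ*fpr4* the highest of the 7 libraries for each, reductive iron and copper uptake genes 3 among 15, and tricarboxylic acid cycle and gluconeogenesis genes 3 among 17, none with a rise. Ergosterol genes had 2 rises and 4 falls among 27, proteasome genes 2 and 3 among 35, and amino acid permease genes 2 and 2 among 19. Subtelomeric genes, taken as those within 20 kb of a chromosome end, had 12 rises and 14 falls among 81 (median 0.07), and intron-containing genes 47 rises and 14 falls among 222, which became 29 and 17 with the length trend removed. Over all tested genes 13.7% rose and 12.7% fell.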
